A study of Drosophila melanogaster with 4 samples.

Results

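The cells the authors labelled spermatocyte were set against those they labelled GSC-like in 4 single-cell RNA libraries of Drosophila melanogaster testis tumors. A GSC is a germline stem cell. The labels put 624 cells in the spermatocyte class and 10889 in the GSC-like class, of 20618 cells in all. The tumors came from overexpression of Unpaired (Upd), the ligand of the JAK-STAT pathway that keeps stem cells in the testis niche. The tumors were of 2 kinds, with 2 libraries each. Nanos-Upd flies were y[1] w[1118] with P{hs70FLP}, and drove UAS-Upd in the germline from P{w[+mC]=GAL4::VP16-nanos.UTR}. TrafficJam-Upd flies were w[1118] and drove UAS-Upd in the somatic cyst cells from traffic Jam-GAL4. Both kinds carried 1 copy of the reporter UAS-FRT-H3-GFP-FRT-H3-mKO. There was no testis without Upd overexpression among these libraries, so both classes are described within tumors. The tissue of about 18 to 20 pairs of testes for each kind of tumor was dissociated and passed through a 40 µm and then a 10 µm filter. A filter of that size can hold back large cells, so the number of spermatocyte class cells is no measure of how many the tumors held.

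In the fly testis a germline stem cell divides to give a gonialblast, which makes a cyst of spermatogonia by mitotic divisions inside a pair of somatic cyst cells. The bag of marbles protein (bam) takes spermatogonia out of these divisions, and after a last S phase the cells become primary spermatocytes. Primary spermatocytes grow and switch on a large set of testis genes through a testis form of the MMB/dREAM complex (tMAC) and testis homologs of TATA-binding protein associated factors (tTAFs). Much of that RNA is stored and translated only after meiosis, when spermatids build the flagellum and pack their chromatin. A small set of genes called cups and comets is transcribed again after meiosis.

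The spermatocyte class held 249 and 106 cells in Nanos-Upd replicates 1 and 2, and 94 and 175 cells in TrafficJam-Upd replicates 1 and 2. The GSC-like class held 2407, 5568, 1119 and 1795 cells in the same order of libraries, and all lists of 4 values here keep that order. Unique molecular identifier (UMI) counts were summed per library and class and expressed as counts per 1000000 UMIs of the sum (CPM). The spermatocyte sums held 926119, 383102, 390539 and 725577 UMIs, against 11609609, 21386875, 5601331 and 7697446 UMIs in the GSC-like sums, so the error of a low gene was set by the spermatocyte sums. A median spermatocyte class cell had between 3214 and 3941 UMIs, and a median GSC-like cell between 3531 and 5014. The deposited cells had between 2200 and 7499 UMIs, under 2500 genes and under 40% ribosomal protein UMIs, and cells outside those limits were not analysed here. The libraries shared 35 cell barcodes over 6 pairs of libraries, 4 to 7 a pair. The fit across genes took the library as a block, so that each class was compared within its own library, and a gene was called at an adjusted p under 0.05. The class labels may themselves have been set from these counts, so a call says how large a difference is against the spread between libraries and is no independent evidence that the classes differ.

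The marker lists set the 2 classes apart and showed what the spermatocyte label covers. Transcripts stored for spermatids summed to 42540, 20970, 47170 and 32510 CPM in the spermatocyte class, against 1460, 769, 428 and 592 CPM in GSC-like cells. The groups did not overlap, and Nanos-Upd replicate 2 was the lowest spermatocyte sum. Primary spermatocyte markers summed to 2980, 2991, 2520 and 2391 CPM in the spermatocyte class and to 474, 401, 401 and 404 CPM in GSC-like cells. Of the spermatocyte mean of 2721 CPM for this list, the gene fest alone held 1470 CPM. Early germline markers were the other way round, at 1185, 2287, 1360 and 1687 CPM in the spermatocyte class and 4346, 4886, 4439 and 3606 CPM in GSC-like cells. Cups and comets summed to 4916, 4020, 4107 and 3240 CPM in the spermatocyte class, against 200, 139, 90.7 and 91.3 CPM in GSC-like cells. The class labelled spermatocyte therefore held RNA of genes known for transcription after meiosis beside that of primary spermatocyte genes, and whether its cells are spermatocytes, spermatids or both was not tested.

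**Figure D1:**
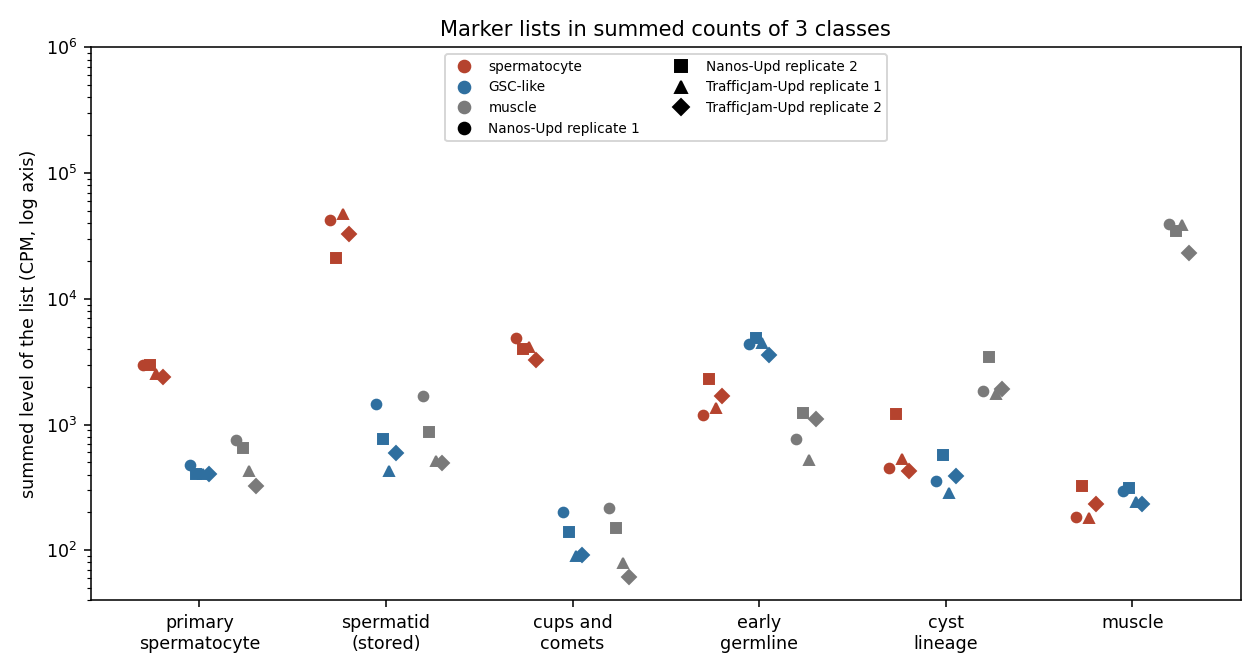
Summed level of 6 marker lists (CPM, log axis) in the spermatocyte class, the GSC-like class and the muscle class, with 1 point for each of the 4 libraries. Spermatid and cups and comets lists stand above all GSC-like and muscle points in the 4 spermatocyte sums, and GSC-like and muscle points lie in the same range for those lists.

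RNA that leaks from broken cells can be captured with intact cells in droplets. The muscle class, which should not express sperm genes, was taken for comparison. The source of the sperm RNA counted in muscle cells was not tested. Spermatid markers summed to 1699, 877, 514 and 495 CPM in muscle cells, beside the 1460, 769, 428 and 592 CPM of GSC-like cells. The ratio of GSC-like to muscle sums was 0.859, 0.877, 0.832 and 1.20. For cups and comets that ratio was 0.924, 0.935, 1.14 and 1.50. The GSC-like level of these lists was thus at the level of a cell type that should lack them, and a fold change of a sperm gene is a ratio to that level. Early germline markers, by contrast, were 3.26 to 8.57 times as high in GSC-like cells as in muscle cells. Primary spermatocyte markers summed to 751, 650, 425 and 327 CPM in muscle cells. Their ratio of GSC-like to muscle sums was 0.631, 0.616, 0.945 and 1.24. The gene bol alone held a mean of 415 CPM of the 538 CPM of this list in muscle cells. In GSC-like cells bol held a mean of 168 CPM of 420 CPM. The ratio of this list thus rested largely on bol and does not place its other genes at the muscle level.

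One spermatocyte sum stood apart. In Nanos-Upd replicate 2 the markers of the cyst lineage summed to 1203 CPM, against 452, 530 and 430 CPM in the other spermatocyte sums, and to 568 CPM in the GSC-like class of the same library. In that library 59.4% of spermatocyte class cells had UMIs of 2 or more cyst lineage markers, against 27.7%, 23.4% and 32.0% in the others. Of 15 cyst lineage markers tested, 11 were higher and 1 was lower in the spermatocyte class, beside 34.1% higher and 34.8% lower of all genes tested. CadN, a cell adhesion protein of cyst cells, was at 85.3, 178, 74.3 and 60.6 CPM in the spermatocyte class and at 23.0, 64.6, 12.9 and 31.1 CPM in GSC-like cells, a log2 fold change of 1.69 ± 0.30 (SE, adjusted p = 0.000386). The transcription factor zfh1, which is needed in cyst stem cells, was the marker that fell (log2 fold change -0.98 ± 0.32, adjusted p = 0.0171), and it lost its call under 3 of 13 alternatives. Hemocyte markers summed to at most 20.5 CPM in the spermatocyte class and 6.13 CPM in GSC-like cells, and the defining markers He, NimC1 and eater had 0 UMIs in the spermatocyte class. The 2 hemocyte markers tested, Pxn and srp, were both higher in the spermatocyte class, with log2 fold changes of 2.78 (adjusted p = 0.00926) and 1.72 (adjusted p = 0.0124). Pxn rested on 9 UMIs in the spermatocyte class and 28 in GSC-like cells. Muscle markers summed to 184, 324, 179 and 233 CPM in the spermatocyte class and to 298, 315, 240 and 232 CPM in GSC-like cells. What part these other cells had in the results below was not tested.

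Of 10016 genes tested, 6908 were called, which is 69.0% of them. Higher in the spermatocyte class were 3419 genes (34.1%) and lower were 3489 (34.8%). These shares are the background for the count of every gene list given below. The calls were close to even in number but not in size. A log2 fold change over 2 was found for 2677 of the higher genes and 280 of the lower ones. Over 4 it was found for 2104 higher genes, and below -4 for 18 lower ones. Of the lower genes, 15 had 0 UMIs in all 4 spermatocyte sums; against a floor of 3 UMIs over the group (1.24 CPM) they were at least 1.82-fold to 7.02-fold lower. The median log2 fold change of all genes tested was -0.24, and with the size factors of relative log expression (RLE) in place of TMM it was -0.03. Without Nanos-Upd replicate 2, 6663 genes were called, and without cells that held 2 or more cyst markers 6226.

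**Figure D2:**
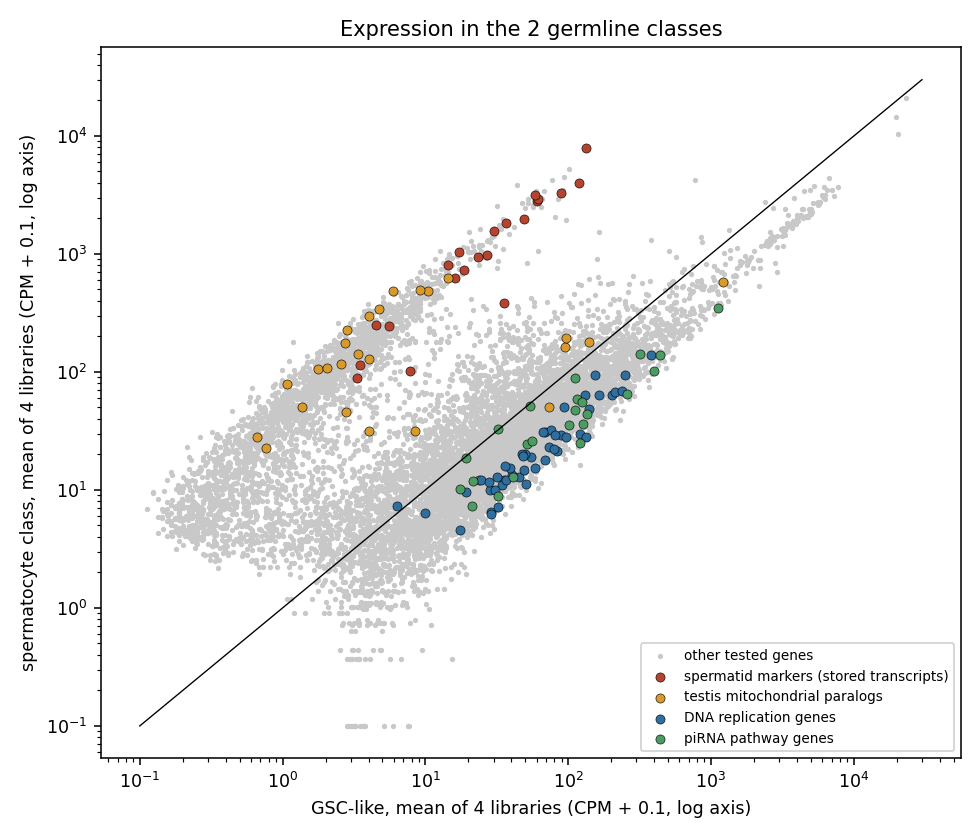
Mean CPM of each tested gene over the 4 libraries in the spermatocyte class (vertical) and in GSC-like cells (horizontal), both as CPM + 0.1 on log axes, with the line of equal values. The 21 spermatid markers lie in a band far above the line, in which most testis mitochondrial paralogs also lie, and genes of DNA replication and of the piRNA pathway lie below the line.

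The genes with a log2 fold change of 4 or more and at least 50 CPM in the spermatocyte class, 1170 in all, took 41.6%, 26.2%, 41.6% and 29.5% of the UMIs of that class. In GSC-like cells they took 1.37%, 0.742%, 0.371% and 0.472%, and in muscle cells 2.11%, 1.21%, 0.787% and 0.674%. These genes were chosen by the contrast, so the shares describe its size only. CPM of a sum add up to a fixed total. The part this has in the lower values of other genes, given below, was not tested. Mst84Da, one of a cluster of sperm flagellum genes, was at 7871 ± 2830 CPM in the spermatocyte class (SD, n = 4), against 133 CPM in GSC-like cells. Non-coding RNAs were mostly on the higher side. Of 743 annotated non-coding RNAs tested, 503 (67.7%) were higher and 95 (12.8%) lower, with a median log2 fold change of 4.49. Of 9224 protein-coding genes, 2909 (31.5%) were higher and 3385 (36.7%) lower, with a median of -0.33.

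Among genes with a mean of at least 50 CPM over the 8 sums, Z600 (FBgn0004052, 3L:15509061-15509513, plus strand, BDGP6) had the largest rise. Z600, also named frühstart, inhibits mitosis in the early embryo by binding cyclin. It was at 217, 164, 166 and 167 CPM in the spermatocyte class and at 2.15, 1.08, 0.357 and 0.780 CPM in GSC-like cells, a log2 fold change of 7.32 ± 0.36 (SE, adjusted p = 1.25e-07). A UMI of Z600 was found in 21.7% to 32.5% of spermatocyte class cells after each cell was thinned to 2000 UMIs, against at most 0.416% of GSC-like cells and at most 2.38% of muscle cells. The third largest rise was that of gcm (FBgn0014179, 2L:9579498-9581745, minus strand, BDGP6), the transcription factor glial cells missing, known for glial and blood cell fate. It was at 118, 99.2, 115.2 and 82.7 CPM in the spermatocyte class against 1.64, 0.795, 0.714 and 0.390 CPM in GSC-like cells, a log2 fold change of 6.83 ± 0.33 (adjusted p = 1.25e-07). UMIs of gcm were found in 14.9% to 20.2% of thinned spermatocyte class cells and in at most 0.416% of thinned GSC-like cells. They were found in 0% of thinned muscle cells, which allows a share of up to 3.85% in the smallest muscle group. Without thinning, 3.57% of muscle cells of Nanos-Upd replicate 1 had a UMI of gcm, against 0% in the other libraries. Muscle cells held a mean of 2.43 CPM of gcm. The median muscle cell had between 3134.5 and 3320.5 UMIs before thinning. The other 10 of the 12 largest rises carry only CG numbers: CG34173, CG16964, CG43922, CG31788, CG18371, CG10734, CG10934, CG31735, CG43760 and CG17380. Their log2 fold changes lay between 6.58 and 6.86. CG31788 was at 5262, 3359, 3879 and 3013 CPM in the spermatocyte class and 89.6, 42.7, 16.8 and 26.4 CPM in GSC-like cells.

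Among genes with a mean of at least 50 CPM the largest fall was that of CG32365 (log2 fold change -2.86 ± 0.27, adjusted p = 2.16e-06), which was at 14.04, 18.3, 12.8 and 19.3 CPM in the spermatocyte class and 114, 102, 147 and 121 CPM in GSC-like cells. The transcription factor ovo, which acts in the germline, was at 28.1, 73.1, 25.6 and 30.3 CPM in the spermatocyte class against 276, 246, 225 and 178 CPM in GSC-like cells (log2 fold change -2.65 ± 0.27, adjusted p = 3.9e-06). string (stg, FBgn0003525, 3R:29251826-29255800, minus strand, BDGP6), the Cdc25 phosphatase that starts mitosis, was at 37.8, 31.3, 66.6 and 49.6 CPM in the spermatocyte class and 270, 199, 262 and 242 CPM in GSC-like cells (log2 fold change -2.40 ± 0.26, adjusted p = 6.45e-06). UMIs of stg were found in 29.7% to 36.0% of thinned GSC-like cells. They were found in 6.83%, 6.604%, 8.51% and 9.14% of thinned spermatocyte class cells, beside 0%, 5.95%, 1.2% and 7.69% of thinned muscle cells. The spermatocyte share thus lay near that of muscle in replicate 2 of each tumor kind and above it in replicate 1. The other genes among the 12 largest falls were Drep2, Septin4, Mov10, lncRNA:CR46148, klu, RapGAP1, Nxf3, CG8545 and tej, with log2 fold changes between -2.44 and -2.26.

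Early germline markers fell as a group. Of 17 tested, 15 were lower and 0 higher, with a median log2 fold change of -1.74, beside 34.8% of all genes lower and a median of -0.24. vasa (vas, FBgn0283442, 2L:15061656-15074311, plus strand, BDGP6), the germline RNA helicase, was at 68.0, 91.4, 38.4 and 63.4 CPM in the spermatocyte class, against 258, 291, 261 and 226 CPM in GSC-like cells (log2 fold change -2.0 ± 0.23, adjusted p = 1.29e-05). Muscle cells held a mean of 46.6 CPM of vas. nanos (nos), a translational repressor of the germline, was at 23.8, 99.2, 43.5 and 37.2 CPM in the spermatocyte class and 176, 207, 240 and 139 CPM in GSC-like cells (log2 fold change -2.04 ± 0.28, adjusted p = 5.01e-05). zpg, the germline gap junction protein, fell by 2.03 on the log2 scale. bam was at 10.8, 60.0, 30.7 and 20.7 CPM in the spermatocyte class against 69.9, 114, 101 and 74.1 CPM in GSC-like cells (log2 fold change -1.74 ± 0.28, adjusted p = 0.000223). GSC-like cells thus carried RNA of bam, which stem cells repress, in 11.8% to 19.6% of thinned cells, against at most 1.28% of thinned muscle cells, while 3.21% to 11.3% of thinned spermatocyte class cells did. Nanos-Upd replicate 2 was the highest spermatocyte sum for vas, nos and bam.

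Genes of DNA replication were lower nearly throughout the list. Of 48 tested, 46 were lower and 0 higher, with a median log2 fold change of -1.59, and the list summed to 1084, 1890, 1155 and 1440 CPM in the spermatocyte class against 3765, 3788, 4214 and 3879 CPM in GSC-like cells. In muscle cells the sums were 913, 1578, 829 and 2086 CPM, near those of the spermatocyte class. Cyclin E (CycE), which drives entry into S phase, was at 20.5, 33.9, 33.3 and 24.8 CPM in the spermatocyte class and 135, 162, 147 and 87.7 CPM in GSC-like cells (log2 fold change -2.22 ± 0.26, adjusted p = 1.5e-05). PolA2 and Prim2, subunits of the primase complex that starts DNA strands, fell by 2.29 and 2.18 on the log2 scale, and the ligase DNAlig1 fell by 2.15. The origin recognition subunit Orc1 was at 3.24, 5.22, 7.68 and 9.65 CPM in the spermatocyte class against 26.1, 28.9, 35.9 and 23.9 CPM in GSC-like cells.

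Genes that act on chromatin and on transposons moved the same way. Of 58 chromatin regulators tested, 45 were lower and 1 was higher, with a median log2 fold change of -1.22; with RLE size factors 40 were lower. Caf1-180, the large subunit of the histone chaperone that loads histones at replication forks, had the largest fall of the list, at 8.64, 23.5, 5.12 and 4.14 CPM in the spermatocyte class against 56.6, 71.9, 63.7 and 54.6 CPM in GSC-like cells (log2 fold change -2.72 ± 0.34, adjusted p = 2.53e-05). The histone chaperone asf1, the H3K9 methyltransferase egg and the Polycomb subunit Sce fell by 1.95, 2.00 and 1.87 on the log2 scale. Set2, the H3K36 methyltransferase, was the member that rose (log2 fold change 0.70 ± 0.27, adjusted p = 0.0363), and it lost its call under 3 of 13 alternatives. Of 23 piRNA pathway genes, which silence transposons in the germline, 18 were lower and 0 higher, with a median of -1.34. The Tudor proteins tej, qin and krimp fell by 2.26, 2.10 and 1.80 on the log2 scale.

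Genes of stem cell signalling were lower in 15 of 24 cases and higher in 1, with a median log2 fold change of -0.98. Of all genes tested, 34.8% were lower and 34.1% higher, with a median of -0.24. Stat92E, the transcription factor of the pathway that Upd activates, was at 64.8, 238, 66.6 and 141 CPM in the spermatocyte class and 254, 238, 227 and 184 CPM in GSC-like cells (log2 fold change -0.98, adjusted p = 0.0155), and the values in Nanos-Upd replicate 2 did not differ between the classes at this rounding. Its target Socs36E did not pass the test, at 81.0, 198, 97.3 and 125 CPM in the spermatocyte class against 89.1, 94.6, 72.1 and 109 CPM in GSC-like cells (log2 fold change 0.40, adjusted p = 0.132). stet, the rhomboid protease of the germline that releases EGF ligands, and the Notch ligand Dl fell by 2.02 and 1.79 on the log2 scale. The BMP receptor wit was the member that rose (log2 fold change 2.23 ± 0.36, adjusted p = 0.000189).

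The regulators that open the spermatocyte program had a smaller median difference between the classes than the stored transcripts described further on. Of 14 tMAC and tTAF genes tested, 8 were higher and 1 was lower, with a median log2 fold change of 1.27. Of all genes tested, 34.1% were higher and 34.8% lower. The list summed to 459, 467, 351 and 478 CPM in the spermatocyte class and to 396, 400, 442 and 514 CPM in GSC-like cells, so the groups overlapped. It summed to 107 to 208 CPM in muscle cells, below both germline classes. always early (aly, FBgn0004372, 3L:3024129-3026521, minus strand, BDGP6), a tMAC subunit, was at 11.9, 2.61, 2.56 and 16.5 CPM in the spermatocyte class against 8.70, 9.40, 18.9 and 18.1 CPM in GSC-like cells. The groups overlapped and the gene did not pass the test (log2 fold change -0.45 ± 0.47, adjusted p = 0.407). spermatocyte arrest (sa, FBgn0002842, 3L:21405425-21406738, minus strand, BDGP6), a tTAF, was at 37.8, 31.3, 23.1 and 15.2 CPM in the spermatocyte class and 2.24, 0.842, 0.357 and 0.780 CPM in GSC-like cells, with no overlap (log2 fold change 4.67 ± 0.43, adjusted p = 2.02e-06). cannonball (can), another tTAF, was at 9.72, 18.3, 12.8 and 8.27 CPM in the spermatocyte class against 3.79, 6.59, 3.04 and 4.29 CPM in GSC-like cells (log2 fold change 1.42 ± 0.41, adjusted p = 0.00959). wuc and vis rose by 2.54 and 2.52 on the log2 scale and comr by 2.71. Caf1-55, a histone binding protein shared with complexes of other cells, was the member that fell (log2 fold change -1.64 ± 0.22).

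The meiotic cell cycle list was split. Of 25 genes, 6 were higher and 14 lower, beside 34.1% higher and 34.8% lower of all genes tested. fest, a protein that with Rbp4 controls cyclin B translation in spermatocytes, was at 1524, 1626, 1444 and 1286 CPM in the spermatocyte class against 56.3, 32.6, 23.2 and 42.2 CPM in GSC-like cells (log2 fold change 5.33 ± 0.26, adjusted p = 1.25e-07). boule (bol), the meiotic translation factor, was at 620, 697, 499 and 466 CPM in the spermatocyte class against 213, 199, 161 and 98.5 CPM in GSC-like cells (log2 fold change 1.82 ± 0.21). Muscle cells held a mean of 415 CPM of bol, more than GSC-like cells. Its target twine (twe), the meiotic Cdc25, was at 83.1, 73.1, 53.8 and 42.7 CPM in the spermatocyte class and 32.3, 36.0, 47.0 and 29.1 CPM in GSC-like cells (log2 fold change 0.83, adjusted p = 0.0118). rux, an inhibitor of mitotic cyclin kinase, and Rbp4 rose by 2.63 and 1.85 on the log2 scale. The cohesion proteins solo, SMC1 and sunn fell by 2.03, 1.95 and 1.81.

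**Figure D3:**
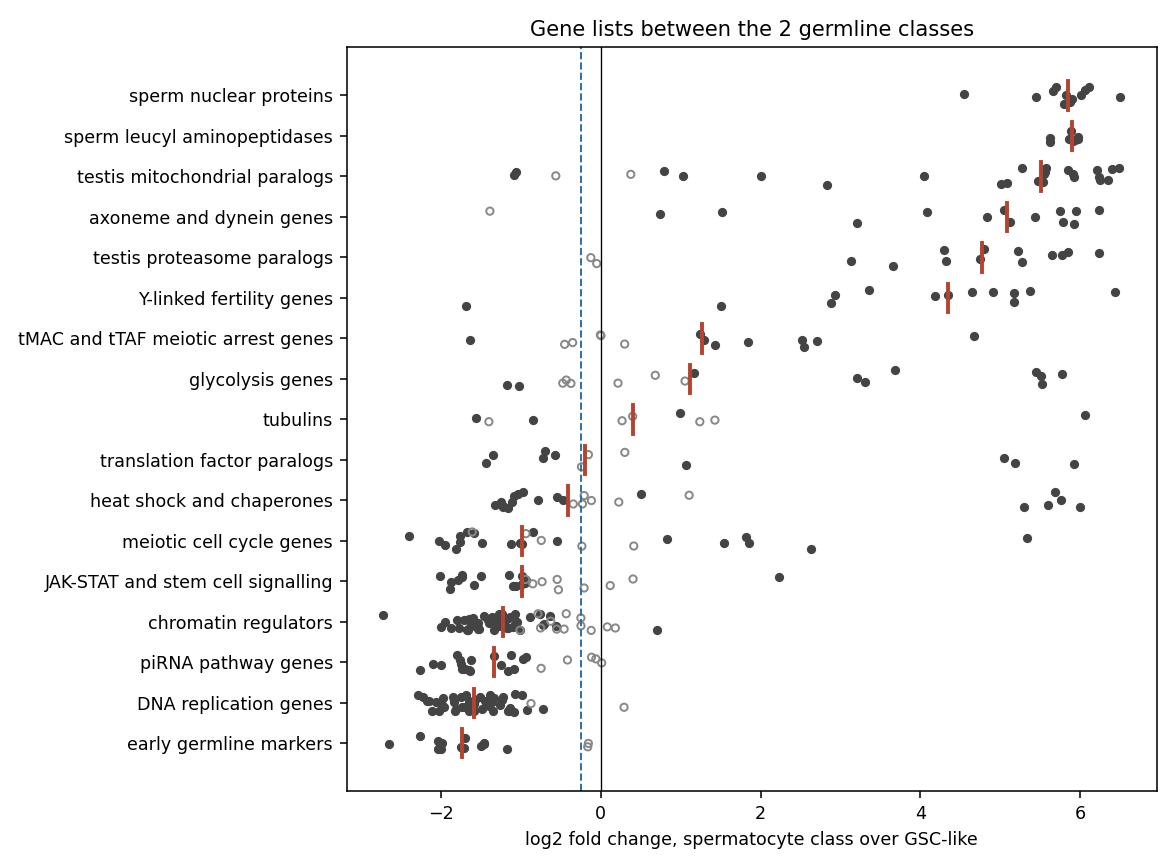
Log2 fold change of each tested gene, spermatocyte class over GSC-like, by list (filled points passed the test at an adjusted p under 0.05, open points did not). Red bars are list medians and the dashed line is the median of all genes tested, -0.24; the sperm lists lie near 6, and replication, piRNA and chromatin lists lie below the dashed line.

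Transcripts that spermatocytes store for the spermatid were higher in 21 of 21 cases, with log2 fold changes from 3.45 to 6.11 and a median of 5.55. Mst87F (FBgn0002862, 3R:13827151-13828008, minus strand, BDGP6), a flagellum protein under known translational delay, was at 4637, 1785, 5684 and 3848 CPM in the spermatocyte class against 206, 107, 63.9 and 98.0 CPM in GSC-like cells (log2 fold change 5.08 ± 0.43, adjusted p = 3.39e-06). Muscle cells held a mean of 129 CPM. After thinning, 83.0% to 96.8% of spermatocyte class cells, 11.2% to 35.8% of GSC-like cells and 14.46% to 39.3% of muscle cells had a UMI of Mst87F. The GSC-like share was thus close to that of muscle cells, and the source of these UMIs was not tested. Without thinning the spermatocyte, GSC-like and muscle ranges were 91.5% to 100%, 22.8% to 58.6% and 22.9% to 58.3%. betaTub85D (FBgn0003889, 3R:9408383-9410282, minus strand, BDGP6), the testis beta-tubulin of the meiotic spindle and axoneme, was at 1896, 1530, 1649 and 1206 CPM in the spermatocyte class against 63.2, 33.8, 11.8 and 11.04 CPM in GSC-like cells (log2 fold change 6.06 ± 0.44, adjusted p = 1.26e-06). The somatic and mitotic betaTub56D went the other way, at 580, 1068, 540 and 837 CPM in the spermatocyte class and 2123, 2601, 1943 and 2082 CPM in GSC-like cells (log2 fold change -1.56 ± 0.15).

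The 12 genes of sperm nuclear proteins tested were all higher, with a median log2 fold change of 5.84. ProtA and ProtB, the protamines that replace histones in the sperm head, are near-identical copies, so how reads were split between them is uncertain. ProtB was at 1224, 726, 1403 and 834 CPM in the spermatocyte class against 35.2, 16.5, 7.14 and 9.48 CPM in GSC-like cells. Mst77F, a linker protein of sperm chromatin, was at 2139, 1162, 2486 and 1528 CPM in the spermatocyte class and 76.5, 34.7, 15.9 and 18.2 CPM in GSC-like cells (log2 fold change 5.87). The 8 sperm leucyl aminopeptidases, which include abundant proteins of the mitochondrial derivative of the sperm tail, were all higher, with log2 fold changes between 5.62 and 5.98. Together they took 14530, 8494, 13550 and 10080 CPM of the spermatocyte class, against 474, 235, 107 and 114 CPM in GSC-like cells.

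Parts of the flagellum and testis copies of housekeeping complexes rose with them. Of 14 axoneme and dynein genes 13 were higher, with a median log2 fold change of 5.08, led by CG17564 (6.23), hmw (5.95), the dynein light intermediate chain Dnali1 (5.92) and the radial spoke gene Rsph9 (5.78). Of 14 testis paralogs of proteasome subunits 12 were higher, with a median of 4.77. Prosalpha6T, the testis form of a core particle subunit, was at 202, 144, 161 and 120 CPM in the spermatocyte class against 5.69, 2.62, 0.179 and 0.909 CPM in GSC-like cells. Of 26 testis mitochondrial genes 22 were higher and 2 lower, or 23 and 1 with RLE size factors, with a median of 5.51. Testis copies of cytochrome oxidase subunits, COX7CL and COX5BL, rose by 6.49 and 6.34 on the log2 scale, while the general subunit cype was at 472, 574, 487 and 766 CPM in the spermatocyte class against 1104, 976, 1223 and 1516 CPM in GSC-like cells (log2 fold change -1.06 ± 0.16). fuzzy onions (fzo), the mitofusin that fuses spermatid mitochondria, was at 56.2 and 57.4 CPM in the Nanos-Upd and 7.68 and 4.14 CPM in the TrafficJam-Upd spermatocyte sums, against 8.53, 4.44, 1.25 and 1.56 CPM in GSC-like cells (log2 fold change 2.83).

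Of 16 glycolysis genes tested, 8 were higher and 2 lower. Of all genes tested, 34.1% were higher and 34.8% lower, which is the background for each list in this paragraph. The testis forms Pglym87, Ald2, Hex-t2 and Hex-t1 rose by 5.77, 5.52, 5.52 and 5.44 on the log2 scale. Pyruvate kinase PyK and phosphoglycerate kinase Pgk fell by 1.18 and 1.02. Of 24 heat shock and chaperone genes, 6 were higher and 12 lower. The testis Hsp60 copies Hsp60C, Hsp60D and Hsp60B rose by 6.003, 5.76 and 5.60, and Hsc70-2 by 5.68, while the chaperonin subunits CCT5, CCT7, CCT1 and CCT3 fell by 1.32, 1.25, 1.23 and 1.22. Of 12 translation factor genes with paralogs, 4 were higher and 5 lower, near the shares of all genes tested. With RLE size factors 4 were higher and 3 lower. The cap-binding proteins eIF4E4, eIF4E5 and eIF4E7 rose by 5.92, 5.18 and 5.05. eIF4E3, which is needed for male meiosis, was at 460, 465, 325 and 364 CPM in the spermatocyte class and 125, 139, 259 and 307 CPM in GSC-like cells (log2 fold change 1.07 ± 0.29). The paralog eIF4E6 went the other way (log2 fold change -1.43 ± 0.40, adjusted p = 0.00799) and lost its call under 2 of 12 alternatives. The scaffold eIF4G1 fell by 1.34 on the log2 scale.

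Genes of the ribosome itself were lower as a share of UMIs. Such shares add up to a fixed total, and the part of sperm RNA in the lower values was not tested. The list of ribosomal genes was added after the data were seen. Of 80 cytosolic ribosomal protein genes 78 were lower and 1 was higher, with a median log2 fold change of -1.02. The higher one was RpL10Aa, at 200, 136, 251 and 149 CPM in the spermatocyte class against 7.67, 4.16, 1.61 and 1.30 CPM in GSC-like cells. Ribosomal protein genes took 13.7%, 16.6%, 14.3% and 20.4% of UMIs of a mean spermatocyte class cell and 31.1%, 29.3%, 33.1% and 35.9% of a mean GSC-like cell. The mean difference was -16.1 ± 2.6 percentage points (SD, n = 4 libraries), lower in 4 of 4, with a two-sided exact sign-flip permutation p of 0.13. That is the smallest p which 4 libraries allow, and it was also 0.13 after adjustment over 5 such values. Mitochondrial genome UMIs took 3.80% ± 0.49 of spermatocyte class UMIs and 5.07% ± 0.63 of GSC-like UMIs (SD, n = 4, exact p = 0.13). The 50 highest genes took 20.8% ± 2.3 of the spermatocyte sums and 30.1% ± 2.7 of the GSC-like sums (SD, n = 4, exact p = 0.13). A median cell thinned to 2000 UMIs showed 1079 ± 63 genes in the spermatocyte class and 955 ± 41 in GSC-like cells (SD, n = 4, exact p = 0.13). The difference, 124.6 genes, was positive in 4 of 4 libraries. Without thinning the mean difference was -59.0 genes, and the libraries had no common sign. The unthinned medians were 1506, 1646, 1552 and 1549 genes in the spermatocyte class and 1779, 1467, 1773 and 1470 in GSC-like cells. The median GSC-like cell held more UMIs in the 4 libraries.

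The share of genes called in each direction was also counted by chromosome. On the X chromosome 27.0% of 1639 genes were higher and 36.7% lower in the spermatocyte class. The median log2 difference of X-linked genes minus that of genes on 2L, 2R, 3L and 3R was -0.39, -0.22, -0.22 and -0.15 in the 4 libraries, a mean of -0.24 ± 0.10 (SD, n = 4, exact sign-flip permutation p = 0.13). These values are on the log2(CPM + 1) scale. On 2L the share of higher genes was the largest of the autosome arms, 39.3% of 1922 genes. Of 88 genes on chromosome 4, the small autosome that the protein POF coats, 9.09% were higher and 58.0% lower. Its median difference to the major autosome arms was -0.99, -0.46, -0.80 and -0.54. Of 16 Y-linked genes tested, 93.8% were higher. The filter on counts described above bears on these shares too.

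**Figure D4:**
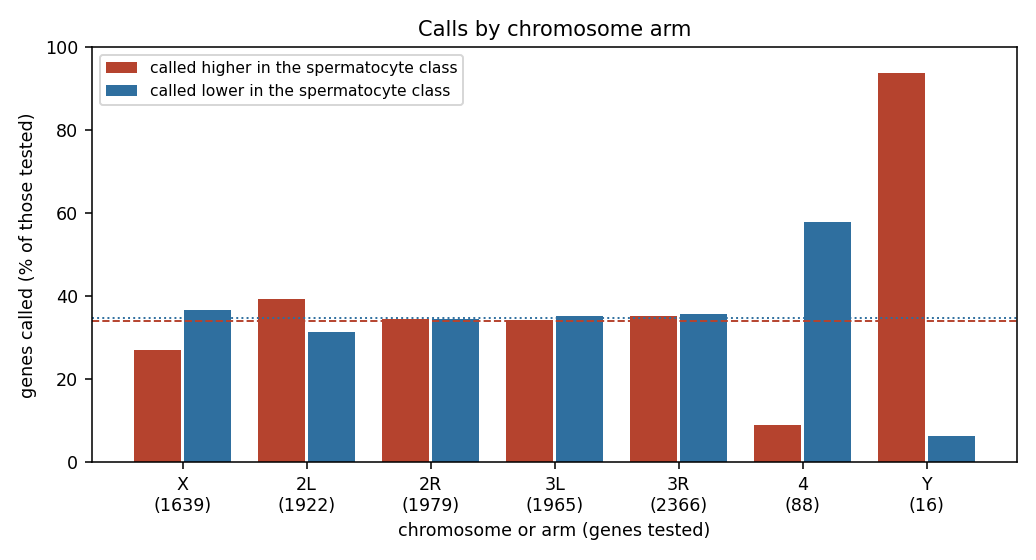
Percent of tested genes called higher (red) and lower (blue) in the spermatocyte class by chromosome or arm, with the number tested below each name. The dashed line is the share of all tested genes called higher, 34.1%, and the dotted line the share called lower, 34.8%; chromosome 4 stands out on the lower side with 58.0% and the Y on the higher side with 93.8%.

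The Y chromosome of Drosophila carries genes that are transcribed in spermatocytes and are needed for male fertility. Of 13 genes in the list of Y-linked fertility genes, 12 were higher and 1 was lower, with a median log2 fold change of 4.34. CCY, a coiled-coil protein gene, was at 55.1, 36.5, 38.4 and 28.9 CPM in the spermatocyte class against 1.46, 0.982, 1.61 and 1.30 CPM in GSC-like cells (log2 fold change 4.91 ± 0.34, adjusted p = 2.93e-07). The dynein heavy chain gene kl-5 was at 73.4, 28.7, 43.5 and 49.6 CPM in the spermatocyte class against 4.57, 2.29, 0.893 and 1.95 CPM in GSC-like cells (log2 fold change 4.34 ± 0.37). kl-3, another dynein heavy chain gene, was at 103, 62.7, 79.4 and 63.4 CPM in the spermatocyte class and 43.2, 26, 21.2 and 21.7 CPM in GSC-like cells, beside a mean of 12.4 CPM in muscle cells (log2 fold change 1.50). FDY was the gene that fell, at 3.24, 0, 5.12 and 6.89 CPM in the spermatocyte class and 7.49, 10.2, 17.1 and 20.9 CPM in GSC-like cells (log2 fold change -1.69 ± 0.50, adjusted p = 0.0101). FDY is a recent copy of the autosomal gene vig2, so its counts may share reads with that gene. CG41561 rose by 6.43 on the log2 scale and lies on an unplaced scaffold of the annotation used.

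Of 8 dosage compensation genes, 2 were higher and 3 lower, shares near those of all genes tested (34.1% higher and 34.8% lower). The complex they encode raises X-linked transcription in male somatic cells. msl-1, mof and mle fell by 1.99, 1.21 and 0.81 on the log2 scale. The non-coding RNAs roX1 and roX2 rose by 1.05 and 1.16. lncRNA:roX1 was at 108, 415, 159 and 117 CPM in the spermatocyte class and 63.0, 158, 50.9 and 91.2 CPM in GSC-like cells, while muscle cells held a mean of 1807 CPM. The highest spermatocyte value was that of the library with the most cyst marker RNA.

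The spermatocyte class was not uniform. Spermatid markers took a median of 4.00%, 1.69%, 5.26% and 2.67% of a cell's UMIs, against 0.130%, 0.0699%, 0.0330% and 0.0436% in GSC-like cells and 0.153%, 0.0732%, 0.0364% and 0.0340% in muscle cells. Of the 10889 GSC-like cells, 0 reached the spermatocyte median of their library, which allows a share of up to 0.268% in the library with the fewest such cells. Of the 624 spermatocyte class cells, 33 (5.29%) lay at or below the 99th percentile of GSC-like cells in their library. For description, spermatocyte class cells were divided by that share into 123 cells under 1%, 228 cells from 1% to 4% and 273 cells at 4% or more. These are ranges of a score and not cell types. Within 20% of the cuts lay 44 cells at the 1% cut and 133 cells at the 4% cut. The range under 1% held 17, 30, 22 and 54 cells, the range from 1% to 4% held 107, 57, 12 and 52 cells, and the range of 4% or more held 125, 19, 60 and 69 cells.

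RNA of the early germline and of the ribosome was lower, and sperm RNA higher, in the ranges with more spermatid marker UMIs. Early germline markers summed to 3200 to 4010 CPM in the cells under 1%, to 1289 to 1897 CPM between 1% and 4%, and to 431 to 820 CPM at 4% or more. The medians over single cells were 2569 to 4131, 578 to 1485 and 373 to 676 CPM, beside 3521 to 4798 CPM in GSC-like cells. Taken over all libraries the lowest range overlapped GSC-like cells in these medians, but within each library it was lower. Its medians were 2660, 4131, 3239 and 2569 CPM, against 4249, 4798, 4323 and 3521 CPM in GSC-like cells. Ribosomal protein UMIs took 25.0% to 31.1%, 15.0% to 23.4% and 8.11% to 10.1% of UMIs along the 3 ranges. DNA replication genes were at 2205 to 2614, 1459 to 1877 and 545 to 834 CPM. The sperm leucyl aminopeptidases were at 1240 to 3216, 7856 to 11240 and 17580 to 19260 CPM. CPM of a cell add up to a fixed total, and the part this has in the lower values was not tested.

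As sums, the regulators and their targets had different places along the ranges, but single regulators did not all follow the sum. tMAC and tTAF genes summed to 622 to 930 CPM in the cells under 1%, to 211 to 635 CPM between 1% and 4%, and to 212 to 274 CPM at 4% or more. The first of these lies above the 396 to 514 CPM of GSC-like cells. UMIs of aly were at 9.37 to 31.5 CPM in the lowest range and were at 0 in the highest range of the 4 libraries, and Rbp4 was at 63.1 to 129 CPM in the lowest range and 0 to 10.6 CPM in the highest. Primary spermatocyte markers as a list summed to 1893 to 2633, 2402 to 3460 and 2438 to 3830 CPM, with overlapping ranges. Y-linked fertility genes were at 65.6 to 189 CPM under 1%, 318 to 803 CPM from 1% to 4% and 566 to 763 CPM at 4% or more. kl-5 had 0 UMIs in the lowest range of the 4 libraries and was at 38.9 to 84.6 CPM in the middle range and 42.4 to 74.8 CPM in the highest. Cups and comets were at 537 to 1403, 3106 to 5604 and 4819 to 8014 CPM; in Nanos-Upd replicate 1 they were lower in the highest range than in the middle one. Of the other regulators, can was at 0 to 38.9, 4.89 to 21.1 and 0 to 7.12 CPM in the same order of ranges. For sa the values were 9.72 to 94.6, 24.5 to 53.7 and 0 to 25.0 CPM. topi was at 0 to 18.7, 14.7 to 33.3 and 0 to 32.05 CPM, so it was not highest in the lowest range. The aly, can, sa and topi values rest on few UMIs.

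**Figure D5:**
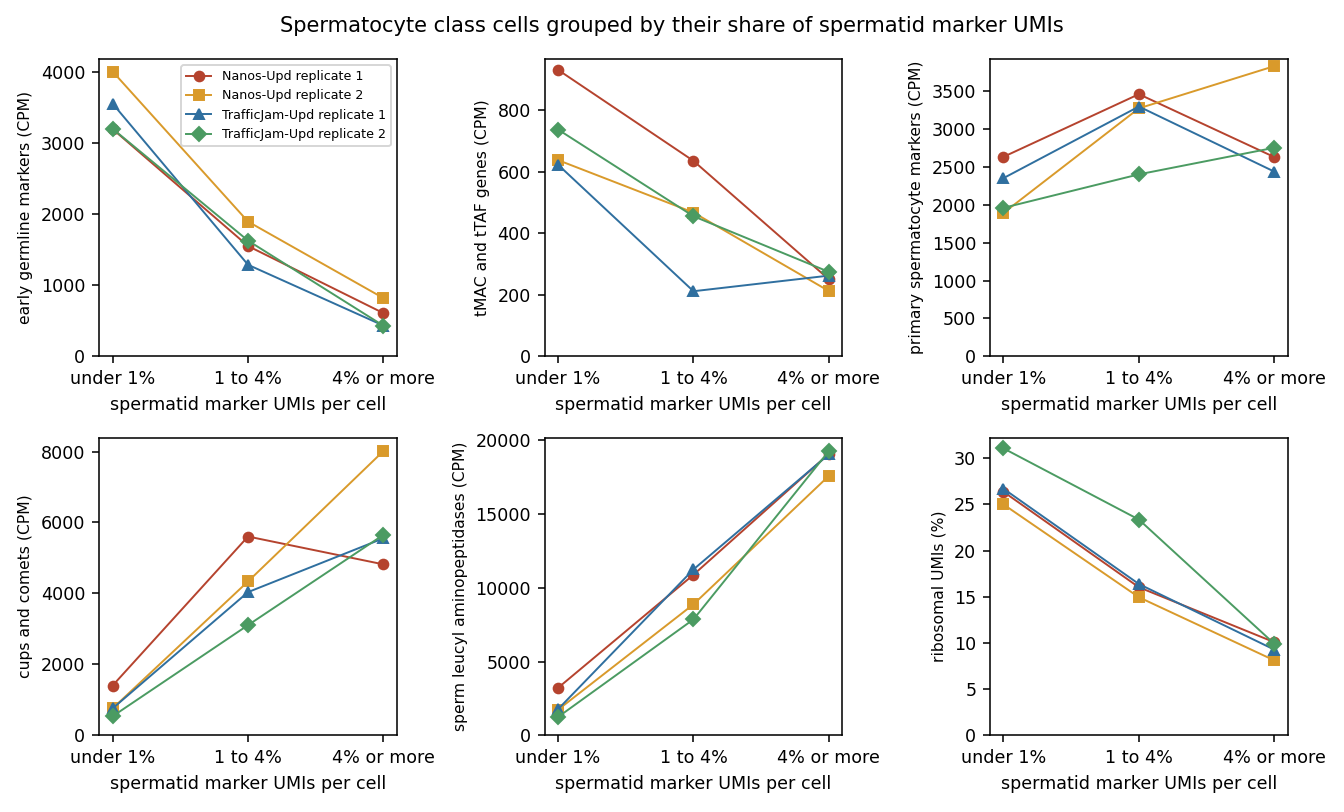
Spermatocyte class cells of each library (4 lines) divided by the share of a cell's UMIs from spermatid markers (under 1%, 1% to 4%, 4% or more), with the summed level of 5 gene lists in CPM and the percent of ribosomal protein UMIs. Early germline markers, tMAC and tTAF genes and ribosomal UMIs are highest in the first range, and sperm leucyl aminopeptidases in the last.

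Across the cells of a library, the spermatid marker share had a Spearman rho of -0.60 to -0.79 with early germline markers, of -0.68 to -0.84 with ribosomal protein UMIs and of 0.64 to 0.93 with the sperm leucyl aminopeptidases. With primary spermatocyte markers it was -0.23, 0.50, -0.20 and 0.21, without a common sign. These correlations over 94 to 249 cells describe cells that share a library and a fixed total. Cyst lineage markers were highest in the middle range of Nanos-Upd replicate 2, at 1712 CPM, with a median over cells of 1067 CPM, against 396 CPM in the highest range of that library.

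The last comparison asked whether the contrast between the classes was the same in both kinds of tumor. Of 10016 genes, 770 were called (7.69%). The contrast was higher in Nanos-Upd than in TrafficJam-Upd tumors for 14 of them (0.14%) and lower for 756 (7.55%). Of those 756, 722 were genes that were higher in the spermatocyte class. For the 756 genes the median log2 difference of Nanos-Upd minus TrafficJam-Upd was -0.13 in the spermatocyte class and 1.20 in GSC-like cells. It was 1.37 in muscle cells and 1.00 in the cells labelled CySC-like. Over all genes tested these medians were 0.14, 0.22, 0.13 and 0.21. The 756 genes were chosen by the spermatocyte and GSC-like sums, so the medians of those 2 classes only describe the choice. RNA of these genes thus stood higher in Nanos-Upd than in TrafficJam-Upd libraries in muscle and CySC-like cells also, and the part of leaked RNA in this was not tested. Spermatid markers supplied 19 of the called genes of 21 tested, and early germline, DNA replication, piRNA and tMAC or tTAF lists supplied 0. With 2 libraries for each kind of tumor the count depended on the fit. It was 223 with DESeq2 and 1 when the library block was dropped. Leaving out the first or the other Nanos-Upd library gave 297 and 191 calls, and leaving out the first or the other TrafficJam-Upd library gave 70 and 699.

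Of the 14 genes with the higher contrast in Nanos-Upd, B9d1, a gene of the ciliary transition zone, had the largest difference among those with a mean of at least 50 CPM. It was at 42.1 and 70.5 CPM in the spermatocyte class and 4.31 and 3.74 CPM in GSC-like cells of Nanos-Upd tumors, against 81.9 and 109 CPM in the spermatocyte class and 48.4 and 67.0 CPM in GSC-like cells of TrafficJam-Upd tumors. The contrast differed by 2.82 on the log2 scale (adjusted p = 9.52e-07), and muscle cells held a mean of 5.32 CPM. Cyclin B (CycB) was at 79.9 and 110 CPM in the spermatocyte class and 90.7 and 85.8 CPM in GSC-like cells of Nanos-Upd tumors. In TrafficJam-Upd tumors it was at 17.9 and 35.8 CPM in the spermatocyte class and 103 and 91.1 CPM in GSC-like cells (difference 1.65, adjusted p = 0.00815). eIF4E3 differed by 1.32 (adjusted p = 0.0115), CG14628 by 1.39 and e(y)2b by 1.25. Under the alternatives eIF4E3 lost its call in 6 of 13, CG14628 in 10 of 12 and e(y)2b in 10 of 13, while B9d1 lost it in 2 of 12 and CycB in 4 of 13. At the other end stood Acp95EF, a male accessory gland gene, with 288 CPM in GSC-like cells of Nanos-Upd replicate 1 and 21.7 CPM in those of replicate 2, against 1.96 and 0.390 CPM in those of TrafficJam-Upd tumors. Its contrast differed by -6.03 (adjusted p = 9.15e-20). CG43049, sunz, CG18368 and CG42597 followed, with differences between -3.39 and -3.06 and GSC-like levels of at most 8.01 CPM. The call was lost in 5 of 13 alternatives for CG43049, 4 of 13 for sunz, 2 of 13 for CG18368, 3 of 13 for CG42597 and 1 of 13 for Acp95EF.

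The ligand and the reporter were read in the same sums. upd1, the gene of Upd, was at 31.3 and 47.0 CPM in the spermatocyte class and 64.3 and 58.6 CPM in GSC-like cells of Nanos-Upd tumors, whose driver acts in the germline. In TrafficJam-Upd tumors it was at 17.9 and 12.4 CPM in the spermatocyte class and 1.79 and 5.33 CPM in GSC-like cells. Over both kinds of tumor upd1 did not pass the test (log2 fold change 0.12 ± 0.57, adjusted p = 0.86), and the contrast differed between them by -2.85 (adjusted p = 0.000488). Counts do not tell the transgene from the gene. The H3-GFP transgene was at 8.64 and 7.83 CPM in the spermatocyte class and 59.9 and 78.2 CPM in GSC-like cells of Nanos-Upd tumors. In TrafficJam-Upd tumors it was at 2.56 and 5.51 CPM in the spermatocyte class and 2.68 and 4.03 CPM in GSC-like cells. Its contrast differed by -3.44 between the tumors (adjusted p = 0.0159). The call of H3-GFP was lost in 10 of 12 alternatives and that of upd1 in 4 of 12. Muscle cells held means of 12.1 CPM of upd1 and 12.1 CPM of H3-GFP over the 4 libraries.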

How the data were processed

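Single-cell 3' libraries (10x Genomics) were made from 2 Nanos-Upd and 2 TrafficJam-Upd tumor samples. The deposited table holds UMI counts per gene and cell, and the authors' table of cells gives the class and the percent of mitochondrial and ribosomal UMIs; its deposited embedding coordinates, a score by the authors, were not used. The submitters' processing notes name Cell Ranger 7.0.0, Seurat 5.0.3 and the build dm6; how classes, doublets and cell limits were set is not given in the sources used here, and no doublet caller was run. Of 17558 features, 17517 matched the Ensembl release 115 annotation of BDGP6 (6.54), which gave positions and biotypes.

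UMIs were summed per class and library (8 sums). edgeR 4.0.16 was run in R 4.3.3 with TMM factors, filterByExpr and robust quasi-likelihood tests, the library as block, and Benjamini-Hochberg adjustment over all 10016 genes; a gene was called at an adjusted p under 0.05. Log2 fold changes are the spermatocyte class over GSC-like. A second fit tested the class by tumor type term. On simulated data the first fit recovered 84% of genes changed by 1 on the log2 scale and 100% of those changed by 2, with 5 false calls among 8320 genes. The second fit recovered 20% and 82%, with 3 false calls among 8363 genes. The simulation changed few genes, as many up as down, with the same dispersion for every gene and no library effect or leaked RNA. Its rates therefore do not carry over to the real contrast, in which 69.0% of genes were called. Shares of cells used cells thinned to 2000 UMIs (intervals, 95% exact binomial, and limits of 3 counts for 0 cover counting error only). Values given as 1 number per library were tested by exact sign-flip permutation in scipy 1.17.1, two-sided. Nothing in the labels says whether the 2 samples of a tumor type came from separate pools of animals, so p-values measure the spread between these samples.

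Named genes were the 12 largest called changes in each direction whose mean reached 50 CPM and whose sign was shared by the 4 libraries, up to 4 called genes per list and direction, the 5 largest tumor type differences in each direction, and aly, can, sa, betaTub85D, Mst87F, bam, vas, nos, upd1 and H3-GFP; genes outside this rule (Mst77F, kl-3, twe, fzo, Orc1, Stat92E, Socs36E, RpL10Aa) were chosen after their values were seen. The members, lists and tests were chosen with earlier results of these data known. Alternatives were DESeq2 1.42.0, RLE factors, library totals, no filter, cells with fewer than 2 cyst markers, cells of at least 3000 UMIs, 94 cells per class and library, other blocks, and each library left out.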

Additional observations from a re-analysis of the deposited data

Results flagged for a closer look

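In 2 of 41 groups of 4 libraries tested, 1 library lay apart from the other three, about the rate of 1 in 20 groups that chance gives. Cyst lineage markers in the spermatocyte class summed to 1203 CPM in Nanos-Upd replicate 2, above the other libraries. Primary spermatocyte markers in GSC-like cells summed to 473.6 CPM in Nanos-Upd replicate 1, against 401 to 404 CPM in the others.

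The class contrast differed between the tumor types, by the interaction term of the fit and given here as Nanos-Upd minus TrafficJam-Upd on the log2 scale, for 51 of the 149 genes whose values were tabulated, 46 lower and 5 higher in Nanos-Upd. The genes whose difference is described here are the following. It was higher in Nanos-Upd for B9d1 (2.82), CycB (1.65), CG14628 (1.39), eIF4E3 (1.32) and e(y)2b (1.25). It was lower for Acp95EF (-6.03), CG43049 (-3.39), sunz (-3.21), CG18368 (-3.11) and CG42597 (-3.06). It was also lower for betaTub85D (-1.95), Mst87F (-1.81), upd1 (-2.85) and H3-GFP (-3.44). Among the genes with the largest rises it was lower for CG43922 (-1.83), CG31788 (-1.45), CG10734 (-1.61), CG10934 (-2.04) and CG31735 (-2.48).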

How the results depend on the processing

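The count of 6908 genes called between the classes stayed within 1.5 times under 12 of 13 alternatives, from 5435 to 7829, and was 4207 with 94 cells per class and library. Without 1 library it ranged from 5435 to 6720. Of the genes called both ways, 0 had the opposite sign under the 13 alternatives. RLE factors gave 3670 higher and 2935 lower, and DESeq2 3625 higher and 2691 lower, as the median of all genes moved to -0.03 in both.

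The tumor type count of 770 was 223 with DESeq2, 448 with RLE factors, 248 with library totals, 179 in cells of at least 3000 UMIs, 79 with 94 cells per class and library, and 1 without the library block; it was 847 without the filter and 711 without cells with 2 or more cyst markers. Without 1 library it ranged from 70 to 699. The cause was not tested, beyond the fewer cells or samples of some of these fits.

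With the replicate number as a block the class count was 6389 and the tumor type count 257. Replicate numbers pair nothing in the labels, and same-numbered libraries correlated at 0.149 in their deviations over 10016 genes.

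The X-linked difference of -0.24 was -0.36 among genes of at least 50 CPM and ranged from -0.28 to -0.20 without 1 library. The mean difference in genes detected, 124.6 at 2000 UMIs, was 72.8 at 1000 UMIs and ranged from 110.7 to 134.8 without 1 library. Without thinning it was -59.0, with no common sign among the libraries. The share difference of the 50 highest genes, -9.29 percentage points, was -4.86 for the 20 highest and ranged from -9.81 to -8.78 without 1 library. Mitochondrial and ribosomal differences ranged from -1.54 to -1.08 and from -17.2 to -15.2 percentage points without 1 library. Cyst lineage calls ranged from 4 to 13 over the alternatives and were 7 without Nanos-Upd replicate 1. Depth limits genes of a few CPM, as the smallest spermatocyte sum held 383102 UMIs. Of 2162 recomputed values of single genes, 2019 stayed on their side of the threshold, 137 lost their call and 6 gained one. The sign turned in 26 of them, 0 of which belonged to a gene called in the fit as reported. Of 364 recomputed list counts, 338 stayed within 1.5 times and 26 moved further.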

Other observations

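Genes of the immediate stress response, which dissociation of tissue can induce, did not move one way. Of 12 tested, 1 was higher and 3 were lower in the spermatocyte class, beside 34.1% higher and 34.8% lower of all genes tested. The number called ranged from 1 to 7 over the alternatives. Jra, the fly Jun, was at 338, 141, 300 and 192 CPM in the spermatocyte class against 25.8, 17.5, 18.8 and 18.6 CPM in GSC-like cells (log2 fold change 3.55 ± 0.28, edgeR adjusted p = 6.55e-07), with a mean of 36.6 CPM in muscle cells. Its partner kay, the fly Fos, was at 36.7, 162, 33.3 and 41.4 CPM in the spermatocyte class and 144, 138, 95.7 and 64.1 CPM in GSC-like cells (log2 fold change -0.92, edgeR adjusted p = 0.0221), and lost its call under 6 of 13 alternatives. lncRNA:Hsromega, a heat-inducible nuclear RNA, was at 662, 3299, 387 and 354 CPM in the spermatocyte class and 4223, 3652, 1481 and 705 CPM in GSC-like cells (log2 fold change -1.41, edgeR adjusted p = 0.00256).

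Markers of the terminal epithelium and seminal vesicle summed to 983, 1146, 914 and 886 CPM in the spermatocyte class and 560, 785, 400 and 628 CPM in GSC-like cells. The metallothionein MtnA made up the greater part of this list, at 925, 1083, 891 and 874 CPM in the spermatocyte class against 527, 758, 384 and 613 CPM in GSC-like cells, beside a mean of 1109 CPM in muscle cells.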
